A study of Homo sapiens with 5 samples.

Results

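The epithelial-mesenchymal transition is the switch by which epithelial cells give up cell-cell junctions and take on the shape and motility of mesenchymal cells. TGF-β family ligands are known inducers of it in breast epithelium, through SMAD2 and SMAD3 and a small set of transcription factors. SMAD2 is phosphorylated by activated activin and TGF-β receptors, pairs with SMAD4 and enters the nucleus. The full-length SMAD2 protein binds DNA poorly by itself and is brought to chromatin by SMAD4 and other factors. The loci described here are 10 genes of this transition, chosen by name: 2 epithelial genes (CDH1 and ESRP1), 3 mesenchymal genes (CDH2, VIM and FN1) and 5 transcription factors (ZEB1, ZEB2, SNAI1, SNAI2 and TWIST1). A locus is the gene's span on hg19, given to the nearest 1 kb, with 20 kb added to each side.

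SMAD2 ChIP-seq was carried out in T47D, an established human cell line of luminal, estrogen receptor-positive breast cancer. Its cells were given palbociclib, an inhibitor of CDK4 and CDK6, at 1 µM for 24 h together with activin A at 50 ng/ml for 1.5 h (2 libraries), or activin A alone at the same dose and time (2 libraries). An input library from untreated cells served for peak calling, and its data were not analysed here. Every SMAD2 library thus came from activin-treated cells of 1 cell line, and the comparison asks whether palbociclib alters where SMAD2 is found. The deposited lists give the summit of each peak, 1 base per peak, with a score that was read as −log10 q against the input. On the autosomes and chromosome X, 62960 and 65207 summits were listed with palbociclib, against 51535 and 54243 with activin alone. The lists hold no expression values, so the luminal label could not be checked against its markers, and read depth is unknown.

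Of 233945 summits in the 4 lists, 140 lay in the 10 loci, and 84 of these were in the loci of the 2 epithelial genes, flanks included. The 10 loci held 35 and 38 summits in the palbociclib libraries, against 29 and 38 in the activin libraries. A region was defined as summits of any library chained at gaps of at most 200 bp, and the loci held 73 such regions. CDH1, ESRP1, VIM, FN1, ZEB1 and SNAI1 each had at least 1 region with a summit in all 4 libraries. CDH2, ZEB2, SNAI2 and TWIST1 had 1 summit each, in 1 library each. The bars of summits by locus show this split.

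**Figure D1:**
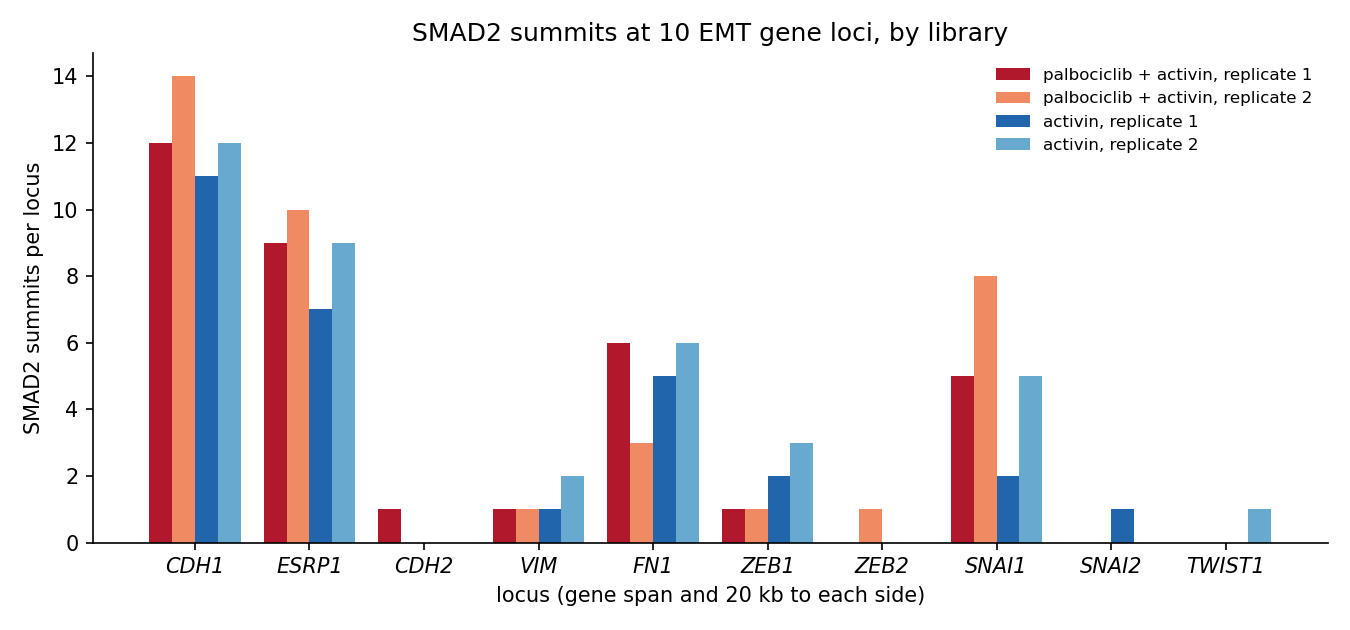
Number of SMAD2 summits (vertical axis) at each of the 10 loci (horizontal axis), with 1 bar per library and palbociclib libraries left of activin libraries. CDH1 holds 11 to 14 summits in every library, while CDH2, ZEB2, SNAI2 and TWIST1 hold 1 summit in 1 library and 0 in the others.

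Promoter sequences of 4 of the 5 genes with a sequence available are shown. ZEB1 had a summit at its 5′ end in every library, VIM had one inside the gene, and CDH2 and ZEB2 had none nearby. CDH1, ESRP1 and SNAI1, whose 5′ summits were the strongest, had no sequence available, so the windows do not span the range of these loci. RefSeq's promoter table for GRCh38.p14 matched 5 of the 10 genes (CDH2, VIM, FN1, ZEB1 and ZEB2), with 12 windows of 250 bases before to 50 bases after a start; CDH1, SNAI1, TWIST1, ESRP1 and SNAI2 are named without sequence. Where a gene has several windows (7 for ZEB1), the first listed is printed, and the windows were not placed on the hg19 positions of the summits. Capitals mark AGAC or GTCT, the short letters that SMAD3 and SMAD4 are known to contact, on either strand. The positions of these windows are chr10:31318167-31318466 (+) for ZEB1, chr2:144520070-144520369 (-) for ZEB2, chr10:17227991-17228290 (+) for VIM and chr18:28177081-28177380 (-) for CDH2, all on GRCh38.p14 and not to be set against the hg19 positions given elsewhere.
ZEB1: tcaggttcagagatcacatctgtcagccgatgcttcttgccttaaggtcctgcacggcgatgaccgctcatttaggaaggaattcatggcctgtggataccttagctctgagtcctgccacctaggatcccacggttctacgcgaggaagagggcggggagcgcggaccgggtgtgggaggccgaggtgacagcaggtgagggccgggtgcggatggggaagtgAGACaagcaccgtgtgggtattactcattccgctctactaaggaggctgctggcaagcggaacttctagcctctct
ZEB2: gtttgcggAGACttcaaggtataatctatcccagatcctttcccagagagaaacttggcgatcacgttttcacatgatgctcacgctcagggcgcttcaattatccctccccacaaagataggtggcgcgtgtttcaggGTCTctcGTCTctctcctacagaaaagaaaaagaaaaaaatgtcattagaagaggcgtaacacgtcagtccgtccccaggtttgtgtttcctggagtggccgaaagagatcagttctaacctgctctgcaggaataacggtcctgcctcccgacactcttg
VIM: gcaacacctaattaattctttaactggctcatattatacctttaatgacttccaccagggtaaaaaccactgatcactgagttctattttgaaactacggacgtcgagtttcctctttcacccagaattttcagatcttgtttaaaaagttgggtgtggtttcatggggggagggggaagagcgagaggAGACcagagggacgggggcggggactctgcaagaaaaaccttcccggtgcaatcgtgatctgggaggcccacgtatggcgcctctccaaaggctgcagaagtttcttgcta
CDH2: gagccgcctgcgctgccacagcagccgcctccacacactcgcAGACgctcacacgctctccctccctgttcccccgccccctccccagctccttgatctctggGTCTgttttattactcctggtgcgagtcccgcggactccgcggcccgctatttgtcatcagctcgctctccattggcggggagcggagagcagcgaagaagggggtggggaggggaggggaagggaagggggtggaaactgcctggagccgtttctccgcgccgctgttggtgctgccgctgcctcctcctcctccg
AGAC or GTCT occurred 1 time in the ZEB1 window, 3 times in the ZEB2 window, 1 time in the VIM window and 2 times in the CDH2 window. All 12 windows of these genes held it, against 84.0% of the 35116 promoter windows in the table, so these letters do not set them apart. The palindrome GTCTAGAC, which contains both forms, was in 0 of the 12 windows and in 0.202% of all windows. CAGGTG or CACCTG, the E-box forms that ZEB and SNAI proteins are known to bind, occurred in 2 of the 12 windows, both of ZEB1, against 20.6% of all windows. CAGAC or GTCTG was in 5 of the 12 windows, against 45.3% of all windows. GGCGC or GCGCC was in 8 of the 12, against 48.6%. Of the 12 windows 7 are of ZEB1, so these counts do not stand for separate genes. These matches describe the letters of the windows and say nothing of binding.

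CDH1 encodes E-cadherin, the adhesion protein of epithelial junctions, and its 5′ end carried the strongest summit of all 10 loci. That region, on chromosome 16 at 68771174 to 68771224, lay 0.199 kb inside the span from the rounded 5′ end. Its score was 295 and 372 in the palbociclib lists, against 236 and 197 in the activin lists. It ranked 480 and 146 in the palbociclib lists, and 275 and 532 in the activin lists, so the ranks of the groups overlapped. Ordered by the worst rank over the 4 lists, it was number 299 of the 23476 regions found in all libraries. Scores are set out list by list as a description, because a score depends on the depth of its library, and a gap in score between lists is not taken as a gap in binding.

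The CDH1 locus held 12 and 14 summits with palbociclib, against 11 and 12 with activin alone. The counts touched at 12, and the means were 13.0 ± 1.4 and 11.5 ± 0.7 (SD, n = 2 each), with p = 0.667 in the exact two-sided permutation test. Per 10000 summits of the list the order turned, at 2.03 with palbociclib and 2.17 with activin alone (log2 difference -0.10). Inside the gene span there were 7 and 8 summits in the palbociclib libraries and 8 and 7 in the activin libraries. The remaining ones lay mostly beyond the 3′ end, with 4 and 5 in the palbociclib libraries and 2 and 3 in the activin libraries.

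Of the 24 regions at CDH1, 6 were found in all 4 libraries. The next strongest inside the gene lay 7.84 kb from the 5′ end, at 68778815 to 68778865, and scored 68.2 and 44.6 with palbociclib, against 71.0 and 54.9 with activin alone. A weaker one at 1.34 kb scored 15.1 and 11.9 in the palbociclib lists, against 1.67 and 2.54 in the activin lists. Within its own list it stood at percentiles 64.1 and 61.1 with palbociclib, against 0.240 and 3.49 with activin alone, so the groups were apart. Its summits were spread over 295 bp, against a median of 76 bp for shared regions of the genome. They lay at 68772193 and 68772267 in the palbociclib lists, and at 68772348 and 68772488 in the activin lists. Whether they mark the same site was not tested. The shared CDH1 region at 53.3 kb was also apart, at percentiles 70.1 and 49.9 with palbociclib, against 23.3 and 32.4 with activin alone. The one at 7.84 kb was apart the other way, at percentiles 87.7 and 84.1 with palbociclib, against 91.3 and 88.3 with activin alone. Of all shared regions of the genome, 39.4% had both palbociclib percentiles above both activin percentiles, and 8.83% had both below. Another shared region lay at 42.0 kb, where the groups overlapped. The last one, at 68877480 to 68877507, lay 106 kb from the 5′ end and beyond the 3′ end of CDH1, with scores of 136 and 115 in the palbociclib lists and 99.4 and 74.1 in the activin lists. The next protein-coding gene on that side is TANGO6 in RefSeq's GRCh38.p14 table, and its position on hg19 was not used here, so this region need not belong to CDH1.

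ESRP1 encodes a splicing regulator that maintains epithelial isoforms of many transcripts, and its locus also held strong summits in every library. It had 9 and 10 summits in the palbociclib libraries, against 7 and 9 in the activin libraries. The counts touched at 9, and the means were 9.5 ± 0.7 and 8.0 ± 1.4 (SD, n = 2 each; exact permutation p = 0.667). Per 10000 summits of the list the order turned here too, at 1.48 with palbociclib and 1.51 with activin alone (log2 difference -0.026). Inside the gene span there were 0 and 3 summits in the palbociclib libraries and 2 and 1 in the activin libraries. Beyond the 3′ end there were 6 and 4 in the palbociclib libraries and 2 and 6 in the activin libraries. The shared region nearest to the 5′ end, on chromosome 8 at 95651556 to 95651628, lay 1.41 kb upstream. It scored 155 and 119 with palbociclib, against 102 and 98.3 with activin alone, and lay between percentiles 94.8 and 96.0 of the 4 lists.

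Another ESRP1 summit lay at the 5′ end itself, within 0.104 kb of it, in palbociclib replicate 2 (score 96.3) and in activin replicate 1 (score 71.2). The other library of each group listed none there, and so the difference ran between replicates and not between treatments. A shared region 16.8 kb upstream scored 86.7 and 63.2 in the palbociclib lists and 40.6 and 55.4 in the activin lists. The strongest region of the locus lay 78.9 kb from the 5′ end, beyond the 3′ end of ESRP1, at 95731878 to 95732015. It scored 182 in both palbociclib lists, against 139 and 135 with activin alone. RefSeq's table places DPY19L4 next to ESRP1 on that side and VIRMA on the other, so this strongest region need not belong to ESRP1.

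**Figure D2:**
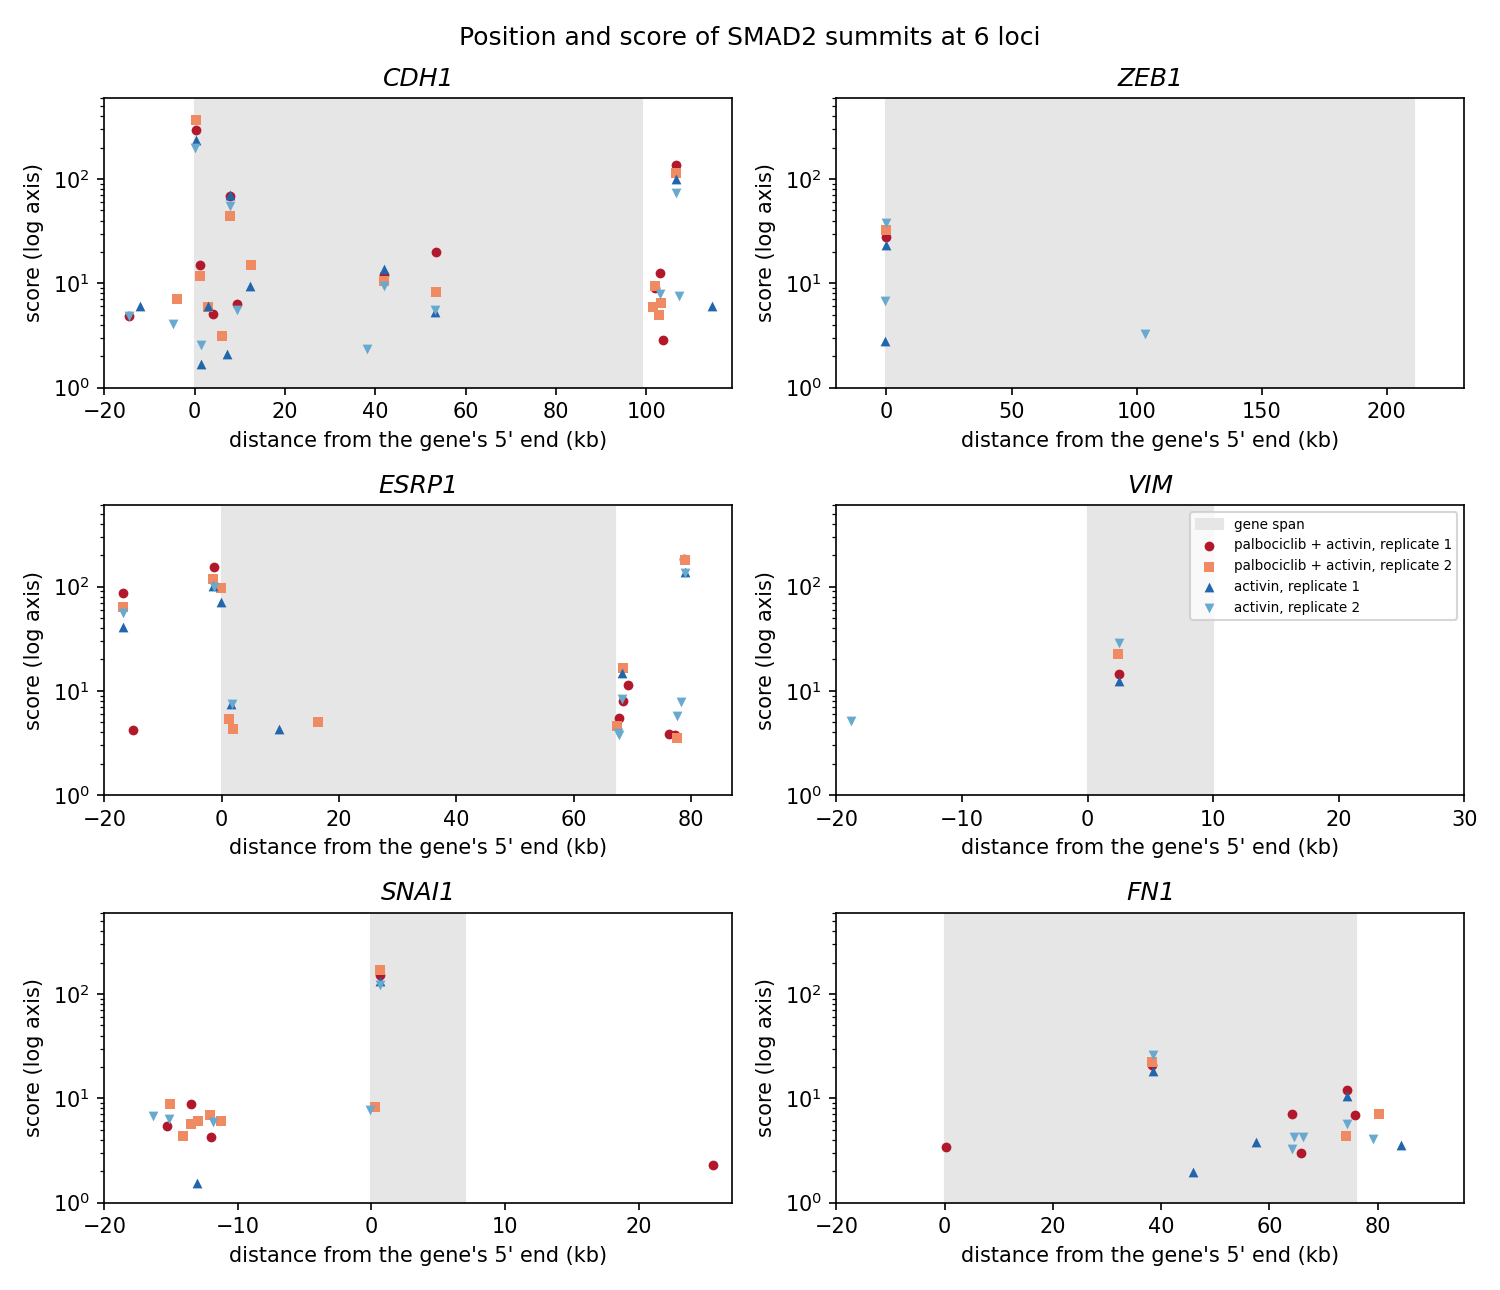
Score of each summit (vertical log axis) against its distance in kb from the gene's 5′ end (horizontal axis) at 6 loci, with 1 marker shape and colour per library and the gene span in grey. At CDH1, SNAI1 and ZEB1 the highest summits of all 4 libraries stand at the 5′ end, and at VIM and FN1 no summit scores above 28.5.

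The mesenchymal genes held 26 summits over 434 kb of windows. Per 100 kb they held 1.38 in the palbociclib libraries and 1.61 in the activin libraries, as group means. That low figure comes from CDH2, which makes up 268 of the 434 kb and held 0.187 and 0 per 100 kb. FN1 held 3.88 and 4.74 per 100 kb and VIM held 2 and 3, again with the palbociclib mean before the activin mean. The epithelial loci held 9.15 and 7.93 per 100 kb, and the genome-wide figures were 2.14 and 2.22 per 100 kb in the palbociclib lists and 1.75 and 1.84 in the activin lists. None of the mesenchymal summits was in the strongest 10% of its list.

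VIM encodes vimentin, the intermediate filament of mesenchymal cells. Its locus had 1 summit in each palbociclib library, against 1 and 2 in the activin libraries. A region in all 4 libraries, on chromosome 10 at 17272443 to 17272508, lay 2.48 kb from the 5′ end inside the gene. It scored 14.4 and 22.7 with palbociclib, against 12.3 and 28.5 with activin alone. Within its own list it stood at percentiles 63.0 and 74.6 with palbociclib, against 59.2 and 79.1 with activin alone, so the groups overlapped.

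FN1 encodes fibronectin, a matrix glycoprotein. The locus held 6 and 3 summits in the palbociclib libraries, against 5 and 6 in the activin libraries, or 4.5 ± 2.1 and 5.5 ± 0.7 (SD, n = 2 each), with an exact permutation p of 1. Palbociclib replicate 2 stood lowest, and without it the log2 difference turned to 0.13 instead of -0.29. The strongest shared region, on chromosome 2 at 216262586 to 216262629, lay 38.4 kb into the gene and scored 20.7 and 22.1 with palbociclib, against 18.3 and 26.3 with activin alone. Another lay near the 3′ end, 74.3 kb from the 5′ end, with scores of 12.1 and 4.32 in the palbociclib lists, against 10.5 and 5.7 in the activin lists. At the FN1 5′ end only palbociclib replicate 1 had a summit, 0.31 kb inside the gene and with a score of 3.39. Of the 13 FN1 regions, 10 were found in 1 library only.

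CDH2 encodes N-cadherin, the cadherin that mesenchymal cells carry in place of E-cadherin. Its window is the longest of the 10, at 268 kb, and it held 1 summit, in palbociclib replicate 1, inside the gene 139 kb from the 5′ end with a score of 5.98. The nearest summits to the CDH2 5′ end in the other libraries lay 181 kb away in palbociclib replicate 2, and 330.4 and 245 kb away in the activin libraries. Of genome tiles of the same length as the CDH2 window, 23.4% held at most 1 summit over the 4 libraries, and 37.3% of 100-kb tiles held none.

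Among the transcription factors, SNAI1 had the strongest summit. SNAI1 encodes Snail, a zinc finger repressor that is known to silence CDH1. A region in all 4 libraries, on chromosome 20 at 48599608 to 48599644, lay 0.626 kb inside the span from the rounded 5′ end. It scored 153 and 170 with palbociclib, against 133 and 123 with activin alone. It ranked 2564 and 1651 in the palbociclib lists, and 1281 and 1683 in the activin lists, so the ranks overlapped between groups.

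The SNAI1 locus held 5 and 8 summits with palbociclib, against 2 and 5 with activin alone. The groups touched at 5, and the means were 6.5 ± 2.1 and 3.5 ± 2.1 (SD, n = 2 each), a log2 difference of 0.89 with an exact permutation p of 0.667. Most of the rest were weak summits in the 20 kb upstream, with 3 and 6 in the palbociclib libraries and 1 and 4 in the activin libraries. Replicate 2 held more of them than replicate 1 in both groups. Without activin replicate 1 the SNAI1 log2 difference was 0.38, without activin replicate 2 it was 1.70, and without palbociclib replicate 2 it was 0.51. The protein-coding neighbour on the upstream side is RNF114 in RefSeq's table.

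ZEB1 and ZEB2 are related zinc finger repressors of CDH1 and of other epithelial genes, and ZEB1 alone of this pair had summits at its 5′ end. At ZEB1, on chromosome 10 at 31607863 to 31607922, all 4 libraries had a summit 0.078 to 0.137 kb upstream of the rounded 5′ end. Its score was 27.7 and 32.2 in the palbociclib lists, against 23.5 and 38.2 in the activin lists. This placed it between percentiles 73.8 and 83.6 of the lists, below the regions at CDH1, ESRP1 and SNAI1. Both activin libraries listed another summit 0.680 kb upstream of ZEB1, with scores of 2.79 and 6.80, where neither palbociclib library had one. That place was 536 bp from the nearest palbociclib summit, and in activin replicate 1 it was at percentile 2.65 of the list. The whole ZEB1 window of 251 kb held 1 and 1 summits with palbociclib, against 2 and 3 with activin alone.

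The ZEB2 window of 177 kb held 1 summit, in palbociclib replicate 2, with a score of 3.77 and 131 kb from the 5′ end. In the other libraries the nearest summit to the ZEB2 5′ end was 170 kb away in palbociclib replicate 1, and 188 and 171 kb away in the activin libraries. SNAI2 encodes Slug, a relative of Snail, and had 1 summit, in activin replicate 1, 2.63 kb inside the span with a score of 5.37. In the palbociclib libraries the nearest summits to SNAI2 were 299.9 and 407 kb away, and in activin replicate 2 the nearest was 407 kb away. TWIST1 encodes a basic helix-loop-helix factor and had 1 summit, in activin replicate 2, 3.70 kb upstream with a score of 3.11. In the palbociclib libraries the nearest summits to TWIST1 were 129.96 and 108 kb away, and in activin replicate 1 the nearest was 108 kb away. None of the isolated summits at CDH2, ZEB2, SNAI2 and TWIST1 was repeated in the second library of its group. A missing summit is not a missing protein: the lists hold only peaks that passed the authors' threshold.

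**Figure D3:**
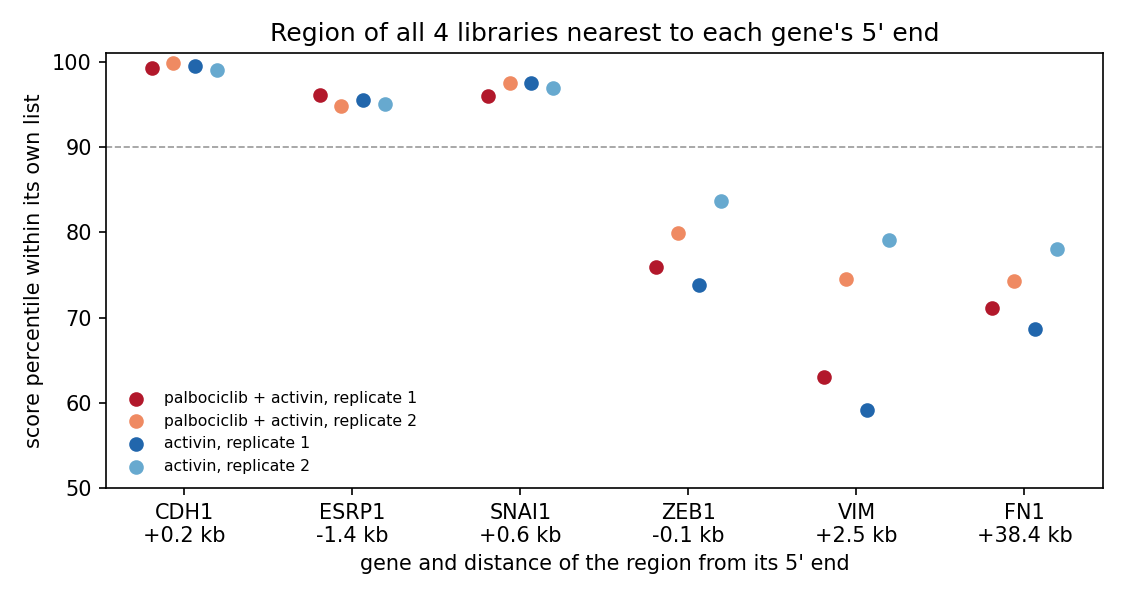
Percentile of the score within its own list (vertical axis, from 50) for the shared region nearest to the 5′ end of 6 genes (horizontal axis, with the distance in kb), 1 point per library. CDH1, ESRP1 and SNAI1 lie above percentile 94 in every library, while ZEB1, VIM and FN1 lie between 59.2 and 83.6.

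Taking the 5′ ends side by side, CDH1, ESRP1, ZEB1 and SNAI1 had a summit within 2 kb in every library, 4 of the 10 genes. A summit in all libraries was found in 3.38% of 4-kb tiles of the genome. Within 20 kb of the 5′ end, 5 of the 10 had summits in all libraries, VIM being the addition, against 22.3% of 40-kb tiles. Tiles also cover stretches without genes, and the same share at the 5′ ends of other genes was not computed, because no hg19 annotation was used. In that 40-kb window CDH1 held 26 summits over the 4 libraries, more than 97.6% of tiles. ESRP1 held 17 (95.1% of tiles held fewer), SNAI1 19 (95.8%), ZEB1 6 (83.6%) and VIM 5 (80.8%). CDH2 and ZEB2 held 0 there, like 60% of 40-kb tiles.

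Between treatments, the counts of the 10 loci were close. The palbociclib mean of 36.5 ± 2.1 summits and the activin mean of 33.5 ± 6.4 (SD, n = 2 each) gave a log2 difference of 0.12, with an exact permutation p of 1. The direction rested on activin replicate 1, without which the log2 difference was -0.058. Relative to list length the order turned: the loci held 5.69 ± 0.19 of every 10000 summits with palbociclib and 6.32 ± 0.97 with activin alone (SD, n = 2 each; log2 difference -0.15, exact permutation p = 0.667). Without activin replicate 2 this difference was 0.017. With 2 libraries against 2 the smallest possible p is 0.33, so no difference here can pass 0.05.

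Locus by locus, both palbociclib counts exceeded both activin counts at 0 of 10 loci, against 17.7% of the 100-kb tiles that held a summit. Both were below at 1 of 10, ZEB1, against 3.18% of tiles. The 5′ windows of 20 kb to each side gave the same counts, 0 above and 1 below (ZEB1), against 13.5% and 2.89% of 40-kb tiles. Per 10000 summits of the list, 0 loci were above (14.2% of tiles) and 3 were below (22.8% of tiles): VIM, FN1 and ZEB1. At VIM and FN1 the counts as listed overlapped, so these loci were below only after division by the longer palbociclib lists. Loci and tiles differ in length, and with 10 loci these shares do not set the loci apart.

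Of the 73 regions, 15 (20.5%) were found in all libraries, against 20.4% of the 115321 regions of the genome. Both palbociclib libraries and neither activin library had a summit in 2 regions (2.74%), against 5.29% of all regions. The reverse held for 1 region (1.37%), against 2.22%, which is the ZEB1 region 0.680 kb upstream. The palbociclib regions were at CDH1, beyond the 3′ end at 68872888 to 68873030 with scores of 9.12 and 9.38, and at SNAI1, 13.5 kb upstream at 48585496 to 48585506 with scores of 8.83 and 5.70. They lay 1095 bp (CDH1) and 450 bp (SNAI1) from the nearest activin summit, and 0 of the 3 regions was over 5 kb from a summit of the other treatment. A further 42 regions (57.5%) were found in 1 library, against 50.8% of all regions. The share found in all libraries is at the genome's level. Counts of 2 and 1 are too few to set the shares found with 1 treatment only apart from the genome's. The share found in 1 library was above the genome's, and this gap was not tested.

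**Figure D4:**
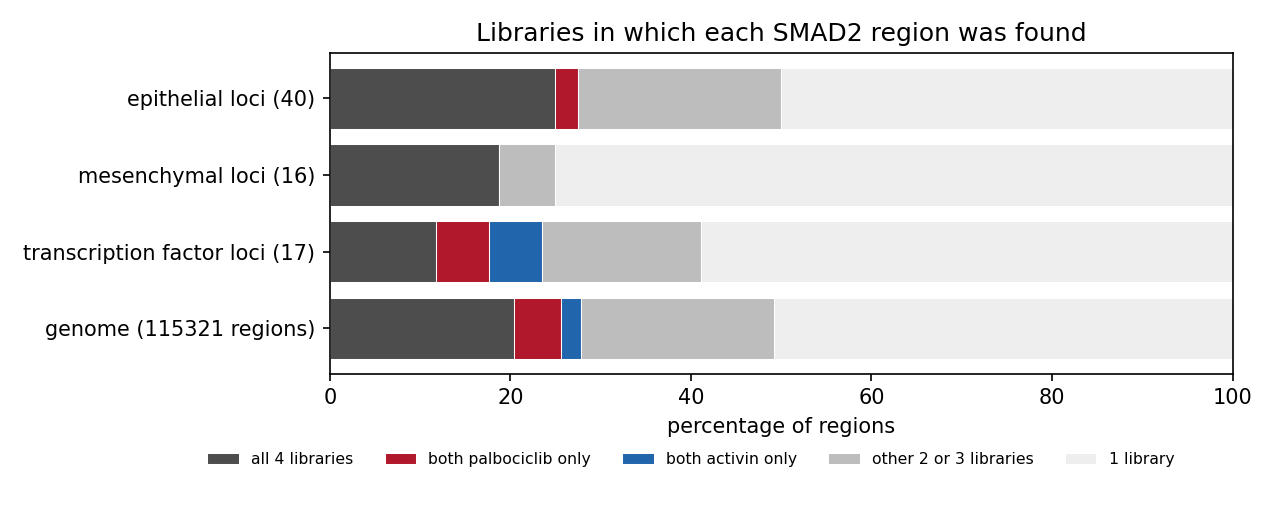
Percentage of regions (horizontal axis) by the libraries in which they were found, for the epithelial, mesenchymal and transcription factor loci and for the genome (rows). Regions of all 4 libraries make up 25%, 18.8% and 11.8% in the 3 groups of loci, against 20.4% in the genome.

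By group, 10 of 40 regions at the epithelial loci, 3 of 16 at the mesenchymal loci and 2 of 17 at the transcription factor loci were shared by all libraries. By percentile within the list, both palbociclib values exceeded both activin values at 2 of the 15 shared regions, both of CDH1, against 39.4% of all shared regions of the genome. Both were below at 1 of 15, also of CDH1, against 8.83%. Percentiles come from lists of different lengths, so they describe the lists and show no change in binding. Overlap between libraries at these loci, as regions in both divided by regions in either, was 0.404 for the palbociclib pair and 0.347 for the activin pair. The 4 pairs across treatments ranged from 0.306 to 0.440, a range that takes in both pairs of the same treatment. The strongest 10% of the lists took in 6 and 6 summits of the 10 loci with palbociclib, and 7 and 5 with activin alone. All of them were in the loci of CDH1, ESRP1 and SNAI1. In every library they included the shared regions beyond the 3′ ends of CDH1 and ESRP1, which need not belong to these genes.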

How the data were processed

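Per the labels' protocols, SMAD2 ChIP-seq libraries of T47D cells were made with an IonXpress Plus kit. The submitters' processing notes name hg19, MACS2 2.0.9, Bowtie 1.1.0 and Picard; read filters and peak calling settings were not given in the sources. A deposited list holds the summits of 1 library, called without pooling, with a score read as the authors' −log10 q against the input, since the lowest was 1.31 and a q of 0.05 is 1.30. Summits on chromosomes 1 to 22 and X were converted to 1-based positions and assigned to the 10 loci, whose spans are known to 1 kb. Genome tiles of 4, 40 and 100 kb ran from the first to the last summit of each chromosome. The 4 libraries' counts were compared by exact permutation, two-sided. The labels do not say whether replicates were separate cultures, so p-values measure a spread that may be technical. Fold differences were computed for loci with at least 4 summits in each group. All 10 genes were named. In each locus the best ranked shared region and the shared region nearest to the 5′ end were named. Group-specific regions were to be named only if over 5 kb from any summit of the other group, and 0 regions met this. Those named here fell outside that rule. Further regions and the percentile comparison were chosen after their values were seen. Members, lists and tests were chosen with earlier results of these data known. Region calling was run on simulated lists of widely spaced regions only, so it was not tested on summits as close as those at these loci. A wider list of transition genes was not used, for want of an hg19 annotation. Python 3.11.15, numpy 2.4.6, pandas 2.3.3, scipy 1.17.1 and matplotlib 3.10.9 were used. Alternatives were score and list-length limits, flanks, chaining gaps, distances, omission of each library and a replicate block.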

Additional observations from a re-analysis of the deposited data

How the results depend on the processing

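The log2 difference in total summits (0.12) was -0.16 with lists of equal length, 0 without flanks and -0.058 to 0.33 when each library was left out. The log2 difference in list share (-0.15) was -0.30 to 0.017 when each library was left out and kept its sign under the other alternatives run. ESRP1 turned to -0.30 with lists of equal length, and FN1 turned to 0.58 with a score of at least 5 and to 0.13 without palbociclib replicate 2 (-0.87 to 0.13 over the 4 omissions); the cause was not tested. CDH1 and SNAI1, as counts, turned negative under none of their 10 alternatives, but CDH1 fell to 0 without flanks. SNAI1 was 0.58 without flanks and fell to 0 with flanks of 5 kb. Per list length CDH1 was -0.10. Regions of all libraries (15) were 9 without flanks, which follows from the smaller windows, and 12 to 19 under the other alternatives. Regions of both palbociclib libraries only (2) numbered 0 without flanks, 1 with flanks of 5 kb, 1 at a gap of 500 bp, 0 at 1000 bp and 3 to 14 when each library was left out. Regions of both activin libraries only (1) numbered 2 at equal length, 0 without flanks, 0 at a gap of 1000 bp and 1 to 14 when each library was left out. Omitting a library relaxes the condition on its group, which raises these counts. Over the genome as a whole, same-numbered libraries did not deviate together (r = -0.00073 across 23476 shared regions, which are not independent). This was not computed for the 10 loci alone. With the replicate block, which compares same-numbered libraries, the total differed by 0.14 and the share by -0.14 on the log2 scale, and regions of 1 library absent from its partner averaged 18.5 for palbociclib and 15 for activin. Genes with a summit within 2 kb of the 5′ end in all libraries (4) numbered 3 to 5 under the 8 alternatives. Unknown read depth limits every count.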
